A study of Homo sapiens with 4 samples.

Results

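The retinoid receptors and retinoid-induced genes examined here were 10 genes, taken by symbol from the 48162 genes of the deposited expression table: the receptors RARA, RARB, RARG and RXRA, the carrier CRABP2, the membrane receptors GPRC5A, GPRC5B and GPRC5C, and the retinoid responders RARRES1 and RARRES3. All 10 were found. The RNA came from MDA-MB-231 cells, a single human triple-negative breast cancer line grown in DMEM with 10% serum. The cells were treated with vehicle control (2 libraries) or with 10 µM MGH-CP1 for 24 h (2 libraries), and the labels name no genetic change in either group. The sample labels give the dose as 10 µM, whereas the methods of the study give 10 mM. MGH-CP1 is a small molecule that occupies the lipid pocket of the TEAD transcription factors and blocks their palmitoylation. GPRC5C and RARRES3 belong to the study's list of genes commonly raised by TEAD–YAP/TAZ blockade, which was made partly on these libraries, so their direction here is not independent evidence.

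Retinoic acid is made from vitamin A in the cell by oxidation of retinol and retinal, is carried to the nucleus by CRABP2, and is broken down by the CYP26 enzymes. In the nucleus it binds the retinoic acid receptors RARα, RARβ and RARγ, which sit on DNA as heterodimers with a retinoid X receptor (RXR) and switch from corepressors to coactivators once ligand is bound. GPRC5A, GPRC5B and GPRC5C are orphan members of the class C G protein-coupled receptors, and GPRC5A was first found as a gene that retinoic acid induces. RARRES1 (also TIG1) and RARRES3 (also TIG3) were found as genes induced in skin by the synthetic retinoid tazarotene. In many breast cancer cells RARB is silenced, and its promoter holds the best known retinoic acid response element.

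Among the 4 libraries, 8 of the 10 genes had a mean of at least 1 FPKM (fragments scaled to the length of the gene and to the total of the library) and were tested with limma together with all 12080 genes past that limit. After MGH-CP1, GPRC5C, RARRES3, RARG, GPRC5B and RXRA were higher and GPRC5A was lower, each at an adjusted p under 0.05, while RARA and CRABP2 were not called. Thus 5 of the 8 genes tested were called higher, where 27.1% of all genes tested were, and 1 of the 8 lower, where 23.8% were. Both MGH-CP1 libraries lay above both vehicle control libraries in 6 of the 8, against 39.8% of all genes tested, and below them in 1 of the 8, against 37.4%. GPRC5C and RARRES3 are among both the 5 and the 6. They come from the study's list made partly on these libraries, so these counts are not independent evidence. RARB and RARRES1 stayed under the limit and have no test in this fit. The libraries held 25455533 and 25508824 fragments (vehicle control) and 17997221 and 17577930 fragments (MGH-CP1), so genes with few fragments were measured less precisely after MGH-CP1. With 2 libraries in each group the smallest exact permutation p is 0.333 (two-sided), which is why the calls depend on limma pooling variance over genes, and nothing in the labels says that the libraries of a group came from separate cultures. In bulk RNA, a change per cell and a change in the share of cells that express a gene cannot be told apart.

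**Figure D1:**
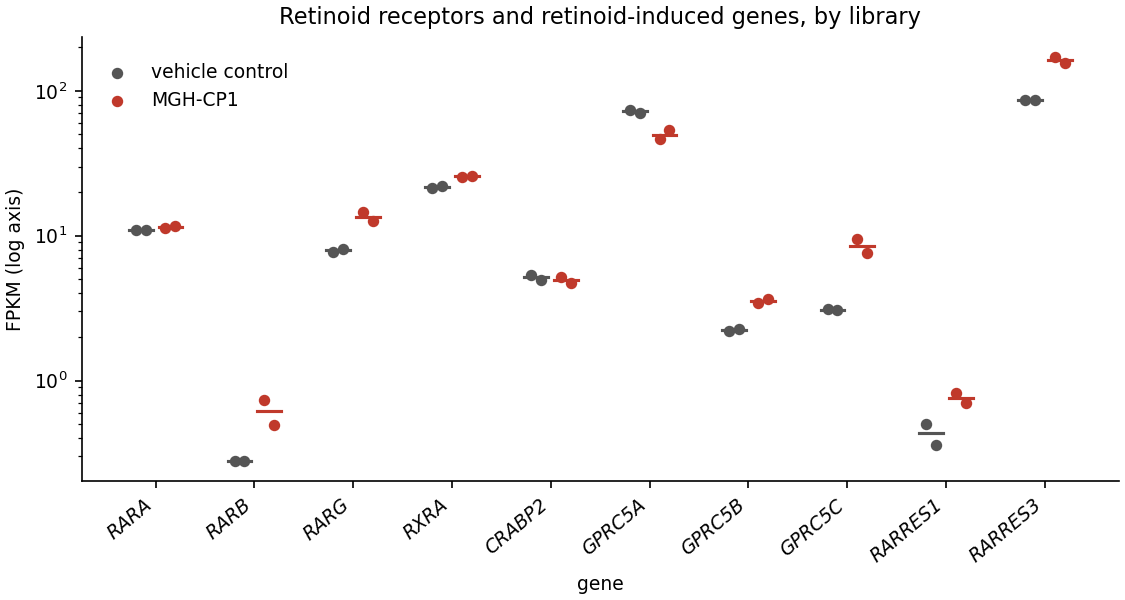
FPKM (log axis) of the 10 genes in each library; points are libraries (grey, vehicle control; red, MGH-CP1) and short lines are the means of 2 libraries. RARG, RARRES3, GPRC5B and GPRC5C stand higher and GPRC5A lower after MGH-CP1, the points of CRABP2 overlap, and RARB and RARRES1 lie below 1 FPKM in every library.

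The promoters of RARB and GPRC5B are shown because RARB carries the known retinoid element, and GPRC5B alone held a half-site among the genes called higher that had a promoter in the table (GPRC5B, RARG and RXRA). RefSeq promoters (GRCh38.p14, 250 bases before to 50 bases after a start) were at hand for 7 of the 10 genes, 13 promoters in all, and were searched on both strands for direct repeats of the half-site AGGTCA with a spacing of 5, 2 or 1 bases, for the half-sites GGTTCA and AGTTCA 5 bases apart in that order, and for the single half-site AGGTCA. Both are written 5′ to 3′ on the strand of the gene, with the matches in capitals, RARB on the plus strand at chr3:25428013-25428312 and GPRC5B on the minus strand at chr16:19885585-19885884.
RARB: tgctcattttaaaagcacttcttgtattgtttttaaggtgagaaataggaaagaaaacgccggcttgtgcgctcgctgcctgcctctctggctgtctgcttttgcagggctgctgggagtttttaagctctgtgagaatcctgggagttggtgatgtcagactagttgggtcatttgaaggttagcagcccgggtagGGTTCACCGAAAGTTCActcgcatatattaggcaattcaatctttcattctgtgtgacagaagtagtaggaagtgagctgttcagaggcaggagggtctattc
GPRC5B: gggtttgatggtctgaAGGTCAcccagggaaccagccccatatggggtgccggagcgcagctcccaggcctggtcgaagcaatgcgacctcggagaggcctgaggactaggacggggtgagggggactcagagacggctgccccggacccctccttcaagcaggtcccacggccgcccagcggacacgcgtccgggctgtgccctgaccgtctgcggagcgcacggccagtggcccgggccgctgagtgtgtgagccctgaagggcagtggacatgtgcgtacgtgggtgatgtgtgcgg
In RARB the capitals are the repeat of GGTTCA and AGTTCA, beginning at position -53 from the start. This form of the repeat is known from RARB itself, so the match shows that the table holds that promoter and is no finding. It occurred in 6 of 35116 RefSeq promoters of this length (0.0171%). In GPRC5B the capitals are a single half-site at position -234, which 13.8% of all promoters also hold. One further RARB promoter (chr3:25340552-25340851) and one RARA promoter (chr17:40308930-40309229) held a single half-site, whereas those of RARG, RXRA, CRABP2 and RARRES1 held none of these letters. The TEAD motif GGAATG, present in 14.0% of all promoters on either strand, was found in 2 of the 4 RARB promoters and in 1 of the 3 RARA promoters, none of them among the sequences printed here. A match is a description of letters, and binding was not measured.

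Of the 3 retinoic acid receptors, RARG was the one called higher, RARA was not called and RARB was under the limit for the test. RARG (ENSG00000172819), which encodes RARγ, occupies bases 53604354 to 53626764 of chromosome 12, minus strand (hg19, as are all gene positions below). Its FPKM was 7.75 and 8.08 in the control libraries and 14.6 and 12.5 after MGH-CP1, both treated libraries being above both controls, with a larger spread between the treated ones. The mean went from 7.92 ± 0.232 to 13.5 ± 1.43 FPKM (SD, n = 2), a log2 fold change of 0.70 on the log2(FPKM + 1) scale (standard error 0.08, limma adjusted p = 2.85e-04). Of all genes tested, 5.27% rose more.

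RARA (ENSG00000131759), encoding RARα, occupies bases 38465444 to 38513094 of chromosome 17, plus strand. It had 11.0 and 10.9 FPKM in the vehicle control libraries and 11.3 and 11.7 FPKM after MGH-CP1. The treated libraries were both above the controls, but by little, and the log2 fold change of 0.06 was not called (95% interval from -0.08 to 0.21, limma adjusted p = 0.424). A gene on the opposite strand, CTD-2267D19.2, lies within RARA and held 6 to 19 fragments per library against 491 to 674 on RARA; whether the counting used the strand is not given in the sources used here.

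RARB (ENSG00000077092), the RARβ gene at bases 25215823 to 25639423 of chromosome 3, plus strand, was nearly silent. Its FPKM was 0.280 in both vehicle control libraries and 0.739 and 0.498 after MGH-CP1, which rests on 22, 22, 41 and 27 fragments. Both treated libraries were above both controls. From the summed fragments the ratio of MGH-CP1 to vehicle control was 2.21 (exact 95% interval from 1.49 to 3.31, which covers counting error only). In limma voom on the recovered fragments of all genes above 0 in some library, the adjusted p was 0.0637, and with log2(FPKM + 1) without a filter 0.110, so RARB was not called in either fit.

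The composition of the RAR transcripts differed accordingly between the libraries of the groups. On the FPKM scale RARG made up 40.8% and 41.9% of the summed RARA, RARB and RARG level in the controls and 54.7% and 50.8% after treatment. RARA was the more abundant of the pair in both control libraries and RARG in both treated ones. The log2 ratio of RARG to RARA within a library went from -0.47 ± 0.05 to 0.23 ± 0.18 (SD, n = 2), a difference of 0.70 (p = 0.333 by two-sided exact permutation, no smaller p being possible). The summed RAR level was 19.0 and 19.3 FPKM in the controls and 26.6 and 24.7 FPKM after MGH-CP1.

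**Figure D2:**
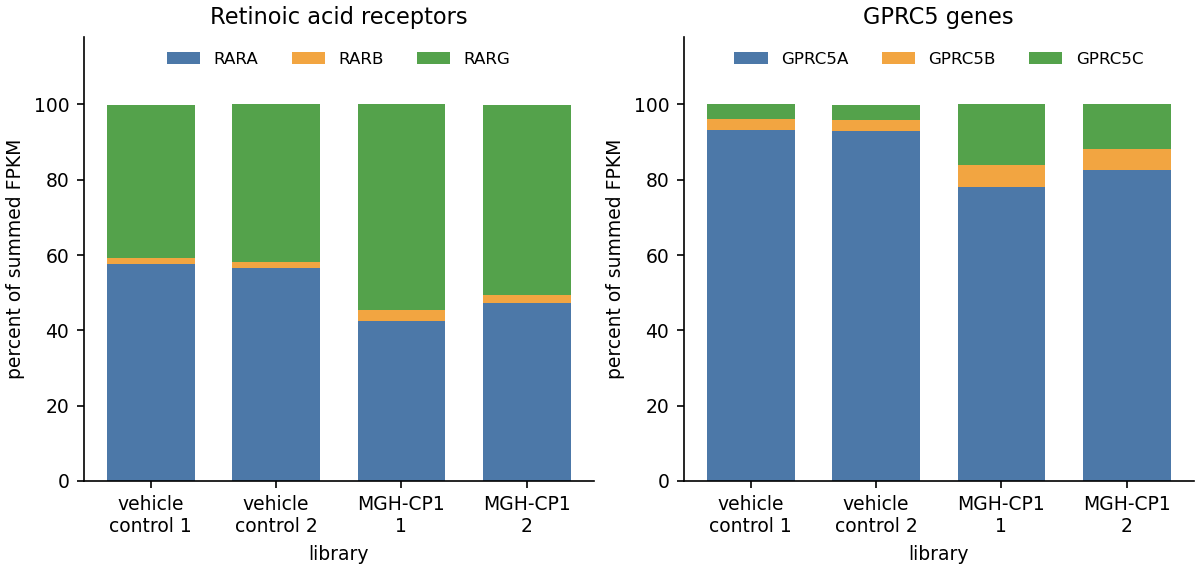
Percent of summed FPKM in each library held by RARA, RARB and RARG (left) and by GPRC5A, GPRC5B and GPRC5C (right); each bar is 1 library. RARG holds 40.8% and 41.9% in the vehicle control bars and 54.7% and 50.8% in the MGH-CP1 bars, and GPRC5C rises from 3.94% and 4.06% to 16.0% and 11.8%.

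RXRA (ENSG00000186350), the RXRα partner of the RARs and of several other nuclear receptors, occupies bases 137208944 to 137332431 of chromosome 9, plus strand. It was the most abundant of the 4 nuclear receptors among the members, with 21.3 and 22.1 FPKM in the vehicle control libraries and 25.6 and 25.9 FPKM after MGH-CP1. The groups did not overlap, yet the change was small, at 0.24 on the log2 scale (standard error 0.05, limma adjusted p = 0.00722). The log2 ratio of RXRA to the 3 RARs together went from 0.18 ± 0.02 to 0.01 ± 0.09 (SD, n = 2, exact permutation p = 0.333, two-sided). The remaining RXR genes were looked up for comparison. RXRB was higher after MGH-CP1, with 30.2 and 33.5 FPKM against 42.5 and 45.3 FPKM (log2 fold change 0.45, limma adjusted p = 8.11e-04). RXRG had a single fragment in MGH-CP1 replicate 1 and none in the other libraries. Of the 4 receptor genes tested, 3 were called higher and 0 lower, where 27.1% and 23.8% of all genes tested were.

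CRABP2 (ENSG00000143320), which hands retinoic acid to RARα in the nucleus, occupies bases 156669398 to 156675608 of chromosome 1, minus strand. Its FPKM was 5.35 and 4.98 in the control libraries and 5.15 and 4.70 after MGH-CP1, and it was the member whose groups overlapped. The log2 fold change was -0.06 (95% interval from -0.25 to 0.14, limma adjusted p = 0.600), on 82 to 135 fragments per library. FABP5, the carrier that delivers retinoic acid to PPARδ, was not called either, with a log2 fold change of -0.03 (limma adjusted p = 0.856). CRABP1 was listed at 0 in all 4 libraries.

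The 3 GPRC5 genes moved in opposite directions. GPRC5C (ENSG00000170412, chromosome 17, bases 72420990 to 72447792, plus strand) had 3.10 and 3.08 FPKM in the vehicle control libraries and 9.47 and 7.60 FPKM after MGH-CP1. This was the largest change among the 8 members tested, 2.76-fold by the means of the FPKM and 1.21 on the log2(FPKM + 1) scale (standard error 0.10, limma adjusted p = 7.81e-05), and 0.844% of all genes tested rose more. The treated libraries differed from each other by more than the controls did (SD 1.32 against 0.0139 FPKM), and both stood far above them.

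GPRC5B (ENSG00000167191, chromosome 16, bases 19868616 to 19897489, minus strand) had 2.22 and 2.29 FPKM in the vehicle control libraries and 3.42 and 3.65 FPKM after MGH-CP1. The groups again did not overlap, and the gene was called higher (log2 fold change 0.48, standard error 0.09, limma adjusted p = 0.00363). The span of IQCK overlaps it by 292 bases on the opposite strand and held 73 to 116 fragments per library, against 260 to 296 on GPRC5B.

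GPRC5A (ENSG00000013588, chromosome 12, bases 13043716 to 13070871, plus strand), also known as RAI3, is the abundant member of the family in these cells. It had 73.5 and 70.5 FPKM in the vehicle control libraries and 46.2 and 53.4 FPKM after MGH-CP1, with both treated libraries below both controls. The drop was called (log2 fold change -0.53, standard error 0.07, limma adjusted p = 5.53e-04), and 5.38% of all genes tested fell more. It was the member measured on the most fragments, 6125 to 13772 per library. GPRC5D, the remaining gene of the family, stayed at 0.214 to 0.340 FPKM.

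Within a library, GPRC5C stood closer to GPRC5A in both treated libraries than in both controls. The log2 ratio of GPRC5C to GPRC5A was -4.57 and -4.52 without MGH-CP1 and -2.29 and -2.81 with it, a difference of 1.99. For GPRC5B to GPRC5A the ratio went from -5.00 ± 0.07 to -3.81 ± 0.08 (SD, n = 2), a difference of 1.19. Each gave p = 0.333 in the exact permutation test (two-sided). In FPKM GPRC5A was still far more abundant than the other two, with 78.2% and 82.6% of the summed level after MGH-CP1 against 93.3% and 92.9% in the controls.

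RARRES3 (ENSG00000133321, chromosome 11, bases 63304281 to 63313934, plus strand; now PLAAT4) encodes a small phospholipase and acyltransferase of the HRASLS family with growth-suppressing activity. It was the most abundant of the 10 genes, with 86.6 FPKM in both vehicle control libraries and 171 and 156 FPKM after MGH-CP1. The ratio of the means was 1.89 and the log2 fold change 0.91 (standard error 0.06, limma adjusted p = 2.58e-05), and 2.45% of all genes tested rose more. Of its family, PLA2G16 was also higher, with 56.2 and 56.4 FPKM against 86.6 and 83.6 FPKM (log2 fold change 0.59, limma adjusted p = 6.0e-05). HRASLS5 was not called (log2 fold change 0.08, limma adjusted p = 0.636), and HRASLS and HRASLS2 were under 1 FPKM in each library.

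RARRES1 (ENSG00000118849, chromosome 3, bases 158414681 to 158450485, minus strand), a membrane protein that inhibits a carboxypeptidase and is often silenced in tumours, was expressed at a low level. Its FPKM was 0.503 and 0.361 in the control libraries and 0.825 and 0.699 after MGH-CP1, from 18 to 29 fragments per library. The groups did not overlap, and the ratio from summed fragments was 1.77 (exact 95% interval from 1.16 to 2.71, counting error only), while the limma fits without a filter gave adjusted p values of 0.123 (log2(FPKM + 1)) and 0.137 (voom). The span of MFSD1 on the opposite strand shares 499 bases with that of RARRES1 and held 1059 to 1422 fragments per library, and the part of reads from MFSD1 in the RARRES1 value was not tested. RARRES2, which encodes the secreted chemoattractant chemerin, had 10.0 to 11.3 FPKM in the controls and 11.9 to 12.8 FPKM after MGH-CP1 (log2 fold change 0.20, limma adjusted p = 0.0637) and was not called.

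**Figure D3:**
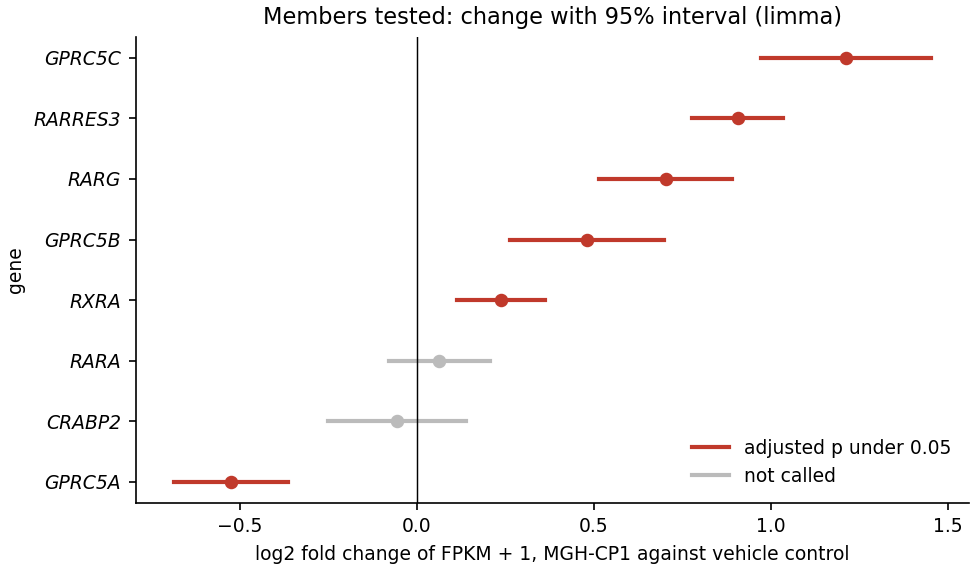
Log2 fold change of FPKM + 1 after MGH-CP1 with the 95% interval from limma for the 8 genes tested; red marks an adjusted p under 0.05 and grey the genes not called. GPRC5C lies highest at 1.21, GPRC5A lowest at -0.53, and the intervals of RARA and CRABP2 span 0.

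Ordered by level per length, the vehicle control libraries ran from RARRES3 and GPRC5A through RXRA, RARA, RARG, CRABP2, GPRC5C and GPRC5B to RARRES1 and RARB, and no neighbours in this order overlapped between libraries. After MGH-CP1 the order was the same except that RARG stood above RARA and GPRC5C above CRABP2. There, RARRES1 and RARB overlapped. In the controls RARRES3 was above 94.6% and GPRC5A above 93.2% of all genes tested, whereas GPRC5C was above 20.6% and GPRC5B above 14.8%.

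**Figure D4:**
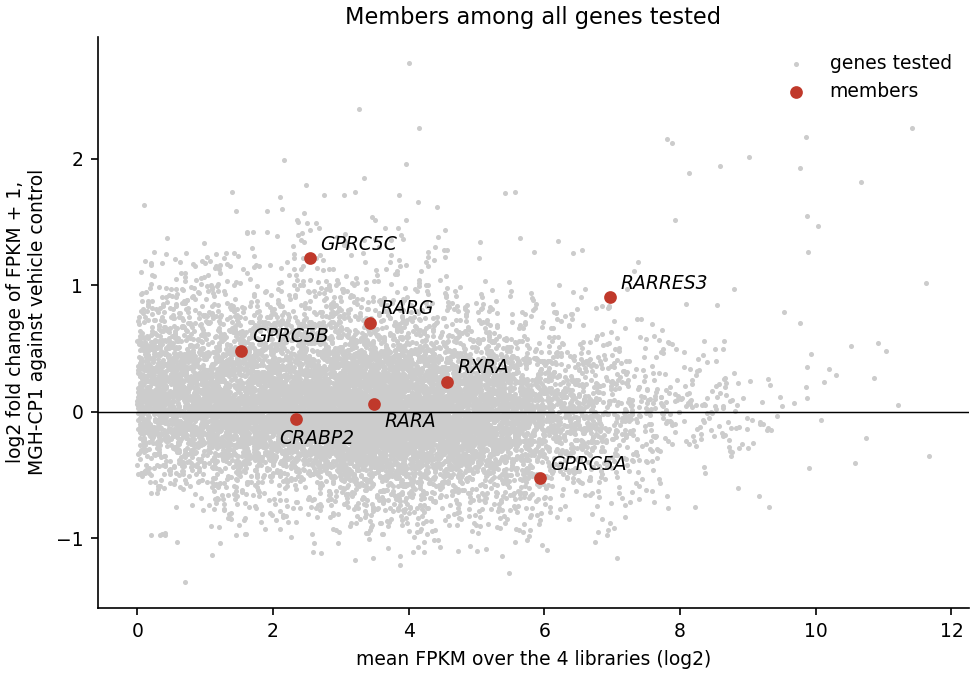
Log2 fold change of FPKM + 1 against the mean FPKM over the 4 libraries (log2) for the 12080 genes tested (grey), with the 8 members tested in red. RARRES3 and GPRC5A are the abundant members and lie on opposite sides of 0, at 0.91 and -0.53.

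The enzymes and carriers of the retinoid pathway were followed in lists drawn up from general knowledge. The list named for retinoic acid synthesis held 24 genes, of which 9 were tested. Of these, 3 were called higher and 0 lower, a share near the 27.1% called higher among all genes tested, where 23.8% were called lower. The median log2 fold change was 0.17, against 0.01 over all genes tested. The list also held DHRS3 and RETSAT, both called higher, which do not make retinoic acid. Its count therefore gives no direction for synthesis. DHRS3, which turns retinal back into retinol and is itself induced by retinoic acid, rose from 7.07 and 8.44 to 18.6 and 19.0 FPKM (log2 fold change 1.18, standard error 0.08, limma adjusted p = 3.7e-05). RETSAT, a retinol saturase, rose from 19.0 and 18.8 to 32.9 and 29.4 FPKM (log2 fold change 0.69, limma adjusted p = 1.16e-04). The remaining gene called higher, RDH10, rose from 1.681 and 1.628 to 2.279 and 2.305 FPKM (log2 fold change 0.31, limma adjusted p = 0.0359). ALDH1A3, the retinal dehydrogenase expressed highest of the 3 ALDH1A genes here, had 1.44 and 1.51 against 1.71 and 1.77 FPKM and was not called (log2 fold change 0.15, limma adjusted p = 0.295). It was singled out after its values were seen, as were RDH10, CRABP1, FABP5, STRA6 and the HOXA genes.

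Among the 5 genes listed for retinoic acid breakdown, 2 were tested, with 0 called higher and 0 lower. Of all genes tested, 27.1% were called higher and 23.8% lower. CYP26B1 had 3.89 ± 0.153 FPKM in the controls and 3.36 ± 0.0533 FPKM after MGH-CP1 (SD, n = 2), a change limma did not call (log2 fold change -0.17, adjusted p = 0.142), and CYP2S1 had a log2 fold change of -0.17 (limma adjusted p = 0.214). CYP26A1, the enzyme whose gene retinoic acid induces most readily, was listed at 0 in all 4 libraries, which allows at most 0.0525 FPKM in the controls and 0.0760 FPKM after MGH-CP1 for counting error (3 fragments per library). CYP26C1 was listed at 0 as well, and UGT2B7 had at most 0.0416 FPKM. Of the genes for uptake, binding and storage, 11 of 12 symbols were found. Of these, 3 were tested, and against the same shares of all genes tested, 0 were called lower and 1 higher. This was RBP5, a cellular retinol-binding protein, at 0.640 ± 0.0284 against 1.89 ± 0.126 FPKM (SD, n = 2; log2 fold change 0.82, limma adjusted p = 9.28e-04), and it passed the limit of 1 FPKM only through its MGH-CP1 libraries.

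The list of other genes known to be raised by retinoic acid held 30 genes, of which 16 were tested; 9 were called higher and 1 lower, where 27.1% and 23.8% of all genes tested were, with a median log2 fold change of 0.31. Of the 9, IRF1 and TNFSF10 are also on the study's list of commonly raised genes. DHRS3 is counted in the synthesis list as well, and IRF1 and DDX58 among the interferon-induced genes below, so these counts are not separate observations. PDK4, a kinase that blocks pyruvate dehydrogenase, rose from 1.51 and 1.49 to 7.49 and 6.71 FPKM (log2 fold change 1.70, standard error 0.09, limma adjusted p = 1.9e-05), and DHRS3 came next. RAI14, an actin-associated protein, fell from 36.8 and 33.8 to 24.8 and 25.8 FPKM (log2 fold change -0.46, limma adjusted p = 4.81e-04). HOXA4 and HOXA5 were listed at 0 in every library, and STRA6, the retinol uptake receptor, had 0.0953 and 0.136 against 0.346 and 0.453 FPKM, without a test. Several genes of this list, such as PDK4, ICAM1 and IRF1, respond to many other signals.

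**Figure D5:**
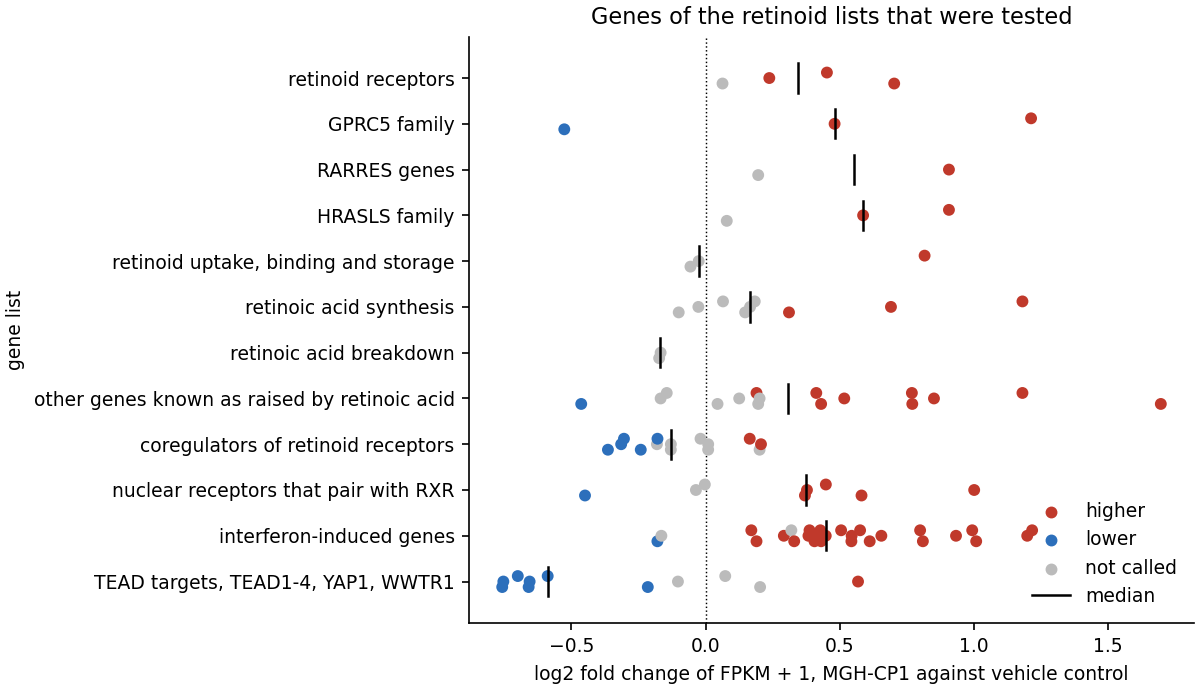
Log2 fold change of FPKM + 1 for the tested genes of each list; points are genes (red, called higher; blue, called lower; grey, not called), set apart vertically only to be seen, and black lines are medians. Medians lie at 0.34 for the receptors, -0.17 for breakdown, -0.13 for coregulators and 0.45 for interferon-induced genes.

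The partners of the receptors were divided. Of 16 coregulators, 14 were tested, with 2 called higher and 5 lower (median log2 fold change -0.13), where 27.1% and 23.8% of all genes tested were. The coactivator NCOA3 (log2 fold change 0.21, limma adjusted p = 0.0255) and the corepressor subunit HDAC3 (0.16, limma adjusted p = 0.0460) were higher. The largest falls were those of the acetyltransferase CREBBP, with 13.6 and 13.1 against 10.2 and 10.1 FPKM (log2 fold change -0.36, limma adjusted p = 0.00182), and of the Mediator subunit MED1 (-0.31, limma adjusted p = 0.00518). Of 13 nuclear receptors that pair with RXR, 8 were tested, with 5 higher and 1 lower against the same shares (median log2 fold change 0.37). NR1H3, the oxysterol receptor LXRα, rose from 3.27 in both control libraries to 8.24 and 6.90 FPKM (log2 fold change 1.00, limma adjusted p = 1.19e-04), followed by NR4A2 (0.58, limma adjusted p = 0.00386). NR4A2, also on the study's list of commonly raised genes, had 0.978 ± 0.0545 against 1.96 ± 0.105 FPKM (SD, n = 2) and passed the limit of 1 FPKM only through its MGH-CP1 libraries. VDR, the vitamin D receptor, fell from 2.83 and 2.63 to 1.51 and 1.97 FPKM (log2 fold change -0.45, limma adjusted p = 0.0138).

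RARRES3 is known to respond to interferon as well as to retinoids, so interferon-induced genes were set beside it. Of 30 such genes 27 were tested, and 24 were called higher and 1 lower (median log2 fold change 0.45), where 27.1% and 23.8% of all genes tested were. One of the 24, OAS1, had 0.424 ± 0.0412 against 1.86 ± 0.0888 FPKM (SD, n = 2) and entered the test only through its MGH-CP1 libraries. IFI35 rose most (log2 fold change 1.22, limma adjusted p = 1.9e-05), then GBP2, from 12.6 and 11.7 to 31.3 and 27.2 FPKM (limma adjusted p = 2.79e-05). GBP2, IRF1 and OAS1 are on the study's list of commonly raised genes, so their direction is not independent evidence. IRF1 and DDX58, both called higher, were also counted above among the genes raised by retinoic acid. The part of interferon signalling in the RARRES3 value was not tested. The TEAD targets AXL, CYR61, AMOTL2, CTGF and ANKRD1 were each called lower in the same libraries (log2 fold change -0.76 to -0.66). Together with TEAD1 to TEAD4, YAP1 and WWTR1 they made a list of 11 genes. Of these, 7 were called lower, against 23.8% of all genes tested, and 1 higher, against 27.1% (median -0.59). TEAD1 (-0.22) and TEAD4 (-0.59) were the other genes called lower, while WWTR1, encoding TAZ, was higher (0.57, limma adjusted p = 9.1e-05).

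The cells expressed the markers of MDA-MB-231 (VIM, CD44, CAV1, AXL, PLAU and S100A4, summed 1749 to 1941 FPKM per library), and ESR1 and PGR were at most 0.0243 FPKM. CDH1, listed as near 0 in this line, had 0.3626 and 0.2895 FPKM in the controls and 0.6383 and 0.5718 FPKM after MGH-CP1. EPCAM (12.4 to 16.4 FPKM) and GATA3 (4.17 to 5.66 FPKM), listed as near 0 as well, were detected. The summed immune markers were 1.79 to 2.46 FPKM in the controls and 3.32 to 4.09 FPKM after MGH-CP1, almost all of it CD14, with CD3E at 0. The endothelial marker VWF was at most 0.0311 FPKM, and PECAM1, also listed, was not found. The summed fibroblast markers were 4.49 to 4.72 FPKM in the controls and 6.25 to 6.39 FPKM after MGH-CP1. Their part in the values of the retinoid genes was not tested.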

How the data were processed

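Poly(A) RNA of MDA-MB-231 cells had been sequenced in 4 libraries, 2 of vehicle control and 2 of MGH-CP1. The authors deposited FPKM for 48162 genes, computed from the listed gene length and the fragments on listed genes, with no scaling between libraries. The submitters' processing notes name CASAVA 1.8, STAR and hg19; the counting tool, annotation release and strand setting are not given in the sources used here. FPKM multiplied by gene length was a whole multiple of 1 step per library for 100% of values (tolerance 0.05 fragments), which gave the fragments. Columns were matched to samples by condition and replicate number.

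Genes with a mean of at least 1 FPKM (12080) were compared as log2(FPKM + 1) with limma 3.58.1 in R 4.3.3 (two-sided; empirical Bayes moderation with a mean-variance trend, which added 5.97 degrees of freedom; Benjamini-Hochberg over all genes tested; threshold 0.05). The pseudocount understates changes of low genes. Ratios within a library used FPKM without a pseudocount and the exact permutation test (scipy 1.17.1). All 10 genes are named; of each of the 12 lists, every gene where there were at most 6, and otherwise the called genes with the 2 largest rises and 2 largest falls. Some genes of the lists are not reported here by name. The members and lists were chosen with earlier results of these data known. The script was tested on simulated data: of 200 genes changed 2-fold in the comparison of MGH-CP1 with vehicle control, 99.5% were recovered among 12085 tested, and 12.3% of the calls were false. The simulated spread was fixed rather than estimated from these libraries, and every change was 2-fold. Far fewer genes were changed than were called in the data, so these rates do not give the error of the real calls. Alternatives were other pseudocounts, filters and scalings, the replicate number as a block, no variance trend, leaving out each library, and limma voom on recovered fragments (chosen after the data were seen).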

Additional observations from a re-analysis of the deposited data

How the results depend on the processing

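Direction and side of the threshold were the same under every alternative run for the 8 genes tested. The adjusted p from limma ranged from 4.39e-10 to 0.0327 for GPRC5A, from 3.68e-05 to 0.0385 for GPRC5B, from 1.39e-11 to 0.0164 for GPRC5C, from 3.70e-14 to 0.0129 for RARRES3, from 1.12e-08 to 0.0214 for RARG and from 4.02e-04 to 0.0404 for RXRA, and was at least 0.394 for RARA and 0.187 for CRABP2. GPRC5B could not be tested at a mean of at least 5 FPKM. Fits lacking 1 library each gave log2 fold changes of -0.63 to -0.42 for GPRC5A, 0.44 to 0.52 for GPRC5B, 1.07 to 1.35 for GPRC5C, 0.84 to 0.97 for RARRES3, 0.04 to 0.08 for RARA, 0.60 to 0.80 for RARG, 0.21 to 0.26 for RXRA and -0.11 to 0.00 for CRABP2. The lone library of a group is then assumed to vary like the others.

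For genes under 1 FPKM the pseudocount set the value. RARB, at 0.33 with a pseudocount of 1, was 0.90 with 0.1 and 1.11 in limma voom without a filter, and RARRES1, at 0.30, was 0.71 and 0.83; leaving out libraries gave 0.23 to 0.44 and 0.23 to 0.37. The fall in the number of genes called lower, from 2869 to 1844, without a filter on low values came with 24878 genes tested. With libraries left out, 2512 to 2991 genes were called higher and 2129 to 2549 lower. The difference in the log2 ratio of GPRC5B to GPRC5A was 1.01 with a pseudocount of 1 (chosen after the data were seen) and 1.03 with quantile normalization, and that of RARRES3 to RARRES1, 0.08 as computed, was 0.61 and 0.42. The latter also changed sign with libraries left out (-0.16 to 0.32). The other ranges with libraries left out were 1.73 to 2.25 for GPRC5C to GPRC5A, 1.13 to 1.24 for GPRC5B to GPRC5A, 0.57 to 0.83 for RARG to RARA and -0.24 to -0.11 for RXRA to the RARs.

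The replicate numbers do not pair the libraries by any label, and same-numbered libraries deviated together with a correlation of 0.0777 across genes. With the replicate number as a block, 3466 genes were called higher and 3052 lower, and no member's call changed. The planned edgeR and DESeq2 fits were not run, because the deposited unit is FPKM; limma voom on recovered fragments took their place, with 3480 genes higher and 3113 lower.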
